A study of Mus musculus with 9 samples.

Results

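The genes described here encode the receptors and enzymes through which liver handles an antisense oligonucleotide (ASO). They are 9 genes, found by gene symbol among the 51912 genes of the deposited expression table. The stabilins Stab1 and Stab2 and the asialoglycoprotein receptor subunits Asgr1 and Asgr2 stand for uptake. Rnaseh1 and the 3 RNase H2 subunit genes Rnaseh2a, Rnaseh2b and Rnaseh2c stand for cleavage of RNA paired to DNA, and Xrn2 stands for removal of the cut RNA. RNA was sequenced from 9 livers of Apoe-/-Ndst1 f/f Alb-Cre+ mice, taken after fasting, of which 5 had received apoC-III ASO and 4 control ASO. Both ASOs were given at 50 mg/kg/week for 8 weeks by intraperitoneal injection. All 9 mice therefore lacked apoE, carried the Alb-Cre deletion of Ndst1, which acts in hepatocytes, and had received an oligonucleotide. No liver without an ASO was part of the comparison, so it asks only whether these genes had another level when the ASO was directed to Apoc3. Age, sex and diet of the sequenced mice are not given in the sources used here.

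A gapmer ASO carries a stretch of DNA between modified ends. The chemistry of the ASOs used is not given in the sources used here. Once a gapmer is paired to its target, the DNA stretch makes a substrate for RNase H1, a monomeric enzyme that cuts the RNA strand, and exonucleases such as XRN2 can then degrade the fragments left in the nucleus. RNase H2, a complex of a catalytic and a pair of accessory subunits, also cuts RNA in RNA:DNA hybrids and removes single ribonucleotides from DNA, and its human genes are mutated in Aicardi-Goutieres syndrome. Phosphorothioate ASOs enter liver largely by endocytosis. The stabilins are scavenger receptors of liver sinusoidal endothelial cells (LSEC), whereas the asialoglycoprotein receptor is a lectin of the hepatocyte surface that also takes up ASOs carrying N-acetylgalactosamine.

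The deposited unit is TPM, the share of transcripts, per 1000000, that a gene takes in a liver once its length is allowed for. In all 9 samples 7SL RNA took 64.0% to 83.6% of all TPM and mitochondrial ribosomal RNA 8.43% to 27.7%, which left 1.94% to 8.64% for nuclear protein-coding genes. Levels are therefore given both as deposited TPM and as a scaled level, for which the TPM of nuclear protein-coding genes was rescaled to 1000000 per liver and divided by a median-of-ratios factor. Both are per length and can be compared between genes. Control ASO replicate 4 stood apart, with 1.94% of TPM in protein-coding genes against 3.04% or more in the other 8 livers. Log2 differences of single genes, ratios and levels relative to markers that changed direction or moved by over 1.5 times without it are given without it too. List medians are given without it for some lists only. Apoc3, the target, was at 14.0 to 32.2 TPM in the apoC-III ASO livers and 41.4 to 271 TPM in the control ASO livers, without overlap (p = 0.0159 in a two-sided exact permutation test, which cannot go lower with 5 against 4 livers). On the scaled level it fell by 3.01 on the log2 scale (SE 0.23, limma adjusted p = 3.9e-04), in accord with the labels. Of 11968 genes tested on the scaled level, 0 were called higher and 2 lower (limma-trend, adjusted p under 0.05 and over 1.5-fold), 0.0167% in all, and 667 genes had an unadjusted p under 0.05. The other called gene was Anpep, which encodes an aminopeptidase.

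The 9 genes spanned a wide range of levels, with the hepatocyte receptor at the top and the RNase H genes at the bottom. On the scaled level the medians over the 9 livers were 480.3 for Asgr1, 248 for Asgr2, 98.7 for Stab1, 57.7 for Stab2, 45.7 for Xrn2, 29.4 for Rnaseh2c, 13.3 for Rnaseh2a, 7.67 for Rnaseh1 and 1.94 for Rnaseh2b. The median of Asgr1 was above that of 98.7% of the genes tested, and that of Rnaseh2b above 12.5%. Among neighbours in this order, only Asgr1 and Asgr2 had ranges that did not overlap. The lowest Asgr1 level, 304, was just above the highest Asgr2 level, 302. All other neighbours in this order overlapped between livers. Within single livers the order was steadier: Asgr2 exceeded Stab1, Rnaseh2c exceeded Rnaseh2a and Rnaseh2a exceeded Rnaseh1 in 9 of 9 livers, Stab2 exceeded Xrn2 in 8 of 9, Xrn2 exceeded Rnaseh2c in 8 of 9, Rnaseh1 exceeded Rnaseh2b in 8 of 9, and Stab1 exceeded Stab2 in 7 of 9.

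**Figure D1:**
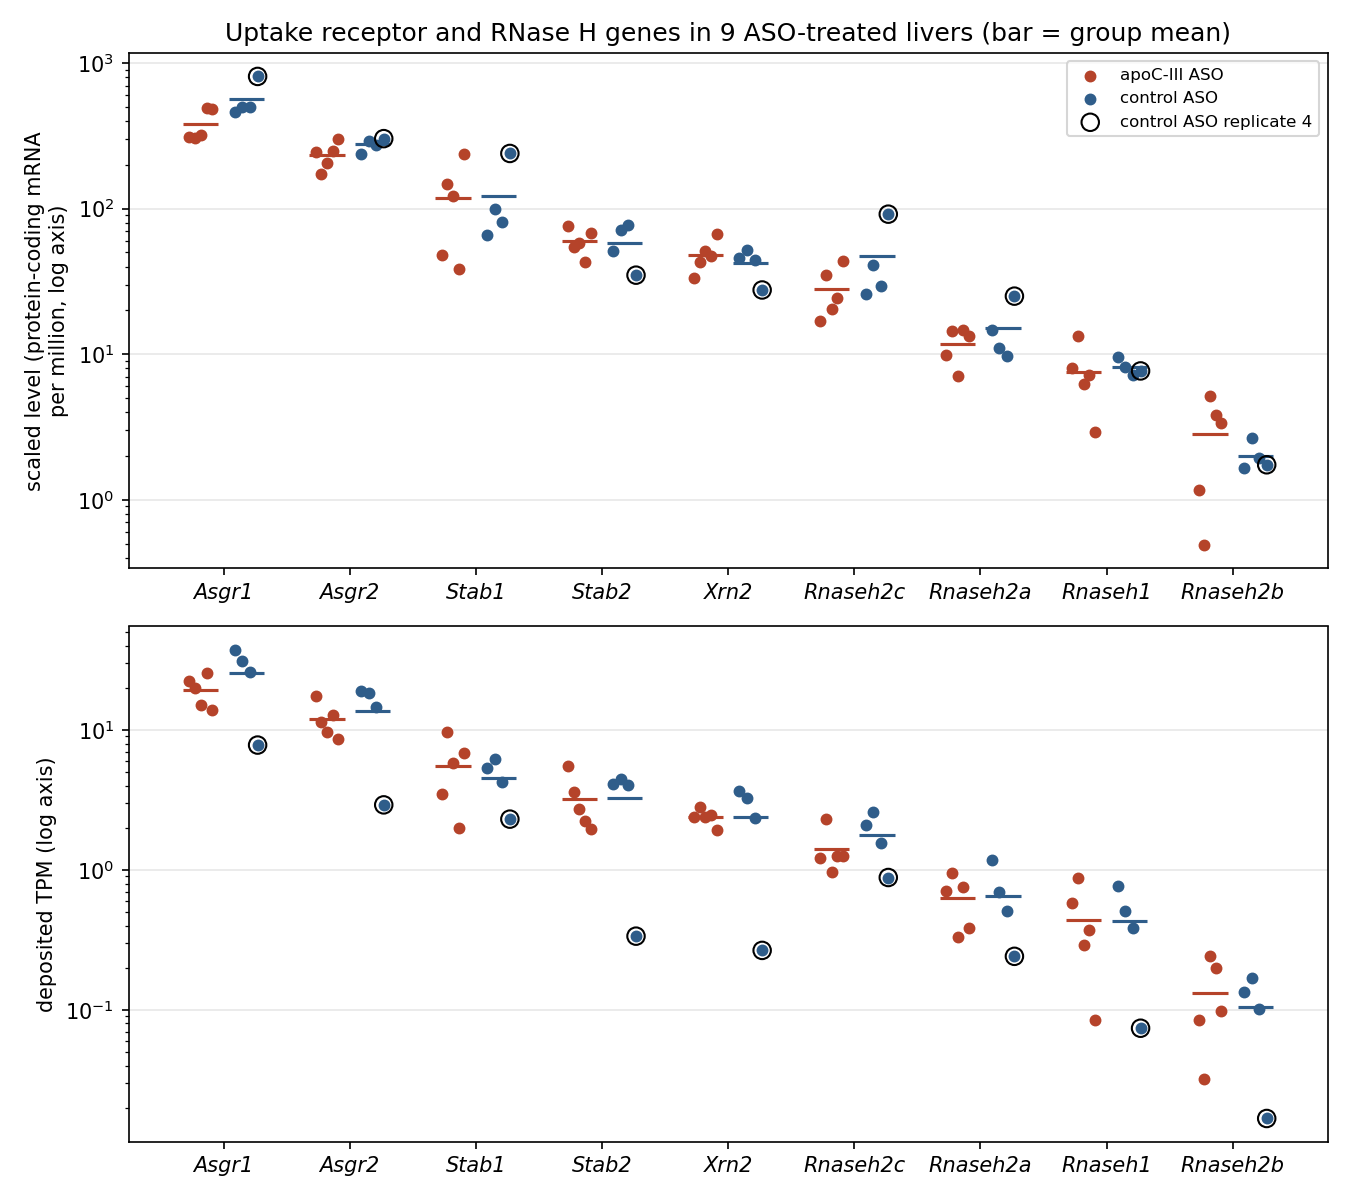
Level of each gene in each liver as scaled level (top) and deposited TPM (bottom), both on log axes, with apoC-III ASO livers in red, control ASO livers in blue, a bar for each group mean and a ring around control ASO replicate 4. The groups overlap for all 9 genes on both scales, and the ringed liver is the lowest of the control livers on deposited TPM for each gene but the highest of them on the scaled level for Asgr1, Asgr2, Stab1, Rnaseh2a and Rnaseh2c.

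The asialoglycoprotein receptor genes lie next to each other on chromosome 11 of GRCm38, 34.7 kb apart on the plus strand, Asgr1 (ENSMUSG00000020884) at 70054085 to 70057894 and Asgr2 (ENSMUSG00000040963) at 70092644 to 70106187. Asgr1 encodes the major subunit and Asgr2 the minor subunit. RefSeq promoter sequences (GRCm38.p6, 250 bases before to 50 after a gene's start) were matched for 7 of the 9 genes, with 8 starts. The letters CAAAGTCC, part of the binding element of HNF4A, a transcription factor of hepatocytes, were searched on both strands of the 250 bases before each start. They occurred once in each of 3 of the 8 windows and in 393 of all 32851 promoters (1.20%). This motif was picked after the Asgr1 and Asgr2 promoters had been read, so these matches are a description only. The 30 bases around each match are shown because Asgr1 and Asgr2 are, of the pairs compared, those whose levels moved together most closely between livers, and Xrn2 is the third promoter with a match. Capitals mark the match, which in Xrn2 is on the opposite strand:
Asgr1, chr11:70054314-70054343, plus strand: tgtttatggttCAAAGTCCcggtgttggtg
Asgr2, chr11:70092582-70092611, plus strand: tatttactgtcCAAAGTCCcaggggcagga
Xrn2, chr2:147012777-147012806, plus strand: cggccacacaaGGACTTTGcggctgcgggc
The match begins 30 bases before the more downstream of 2 listed Asgr1 starts and 51 bases before the Asgr2 start. In Asgr1 it lies after the other listed start, whose own window held no match. It is also inside the annotated span of Asgr1, which begins at 70054085. Neither stabilin promoter, nor that of Rnaseh2a or Rnaseh2c, held these letters in this window.

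Asgr1 had the largest difference between groups in relation to its error, and it was lower with apoC-III ASO. Its scaled level was 309, 304, 320.2, 493 and 480.3 in apoC-III ASO replicates 1 to 5. In control ASO replicates 1 to 4 it was 464, 498, 496 and 809. ApoC-III ASO replicates 1 to 3 lay below all control livers, whereas replicates 4 and 5 lay within the control range. As deposited TPM the same gene was at 22.2, 20.0, 15.1, 25.5 and 13.9 in the apoC-III ASO livers and 37.3, 31.3, 26.1 and 7.80 in the control livers. On this scale the first 3 control livers were above all apoC-III ASO livers and control ASO replicate 4 was below them all. The mean scaled level was 381 ± 96.6 (SD, n = 5) with apoC-III ASO and 566 ± 162 (SD, n = 4) with control ASO. The log2 fold change was -0.57 (SE 0.25, 95% confidence interval -1.12 to -0.01), with an unadjusted p of 0.046 but a limma p of 0.876 after adjustment over all genes. The exact two-sided permutation test gave p = 0.0794. Asgr1 was the 1 gene of 9 with an unadjusted p under 0.05, beside 5.57% of all genes tested. Without control ASO replicate 4 the log2 fold change was -0.38, and on deposited TPM it was -0.23.

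Asgr2 differed less. Its scaled level was 245, 174, 205, 248 and 301 in apoC-III ASO replicates 1 to 5 and 237, 291, 274 and 302 in control ASO replicates 1 to 4. The lowest 2 values, 174 and 205, were in apoC-III ASO livers, and the remaining values of the groups overlapped. In deposited TPM Asgr2 was at 17.6, 11.5, 9.70, 12.8 and 8.68 with apoC-III ASO and 19.1, 18.3, 14.5 and 2.92 with control ASO. The group means of the scaled level were 235 ± 48.0 (SD, n = 5) and 276 ± 28.4 (SD, n = 4). The log2 fold change was -0.25 (SE 0.21, 95% confidence interval -0.72 to 0.21, limma adjusted p = 0.918), and it turned to 0.04 on deposited TPM. Asgr2 was among the least variable genes, with a within-group SD of 0.25 on the log2 scale, smaller than that of all but 10.7% of the 8606 genes with a mean scaled level of at least 5.

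The stabilin genes encode large multidomain receptors. The longest coding transcript in the GENCODE annotation has 69 exons in each, with 7999 bases for Stab1 (ENSMUSG00000042286, chromosome 14, 31139013 to 31168641, minus strand) and 8228 bases for Stab2 (ENSMUSG00000035459, chromosome 10, 86841198 to 87008025, minus strand). Stab2 was similar in both groups. Its scaled level was 76.4, 54.7, 57.7, 43.0 and 68.1 in apoC-III ASO replicates 1 to 5. It was 51.0, 70.8, 77.0 and 34.9 in control ASO replicates 1 to 4, so the control livers held both the highest and the lowest value. In deposited TPM Stab2 was at 5.50, 3.61, 2.73, 2.22 and 1.96 with apoC-III ASO and 4.10, 4.46, 4.06 and 0.337 with control ASO. The lowest of these was again control ASO replicate 4. The mean scaled level was 60.0 ± 12.8 (SD, n = 5) and 58.4 ± 19.2 (SD, n = 4), and the log2 fold change was 0.07 (SE 0.27, 95% confidence interval -0.52 to 0.66, limma adjusted p = 0.992). The interval corresponds to a level between 0.70 and 1.58 times that of the control group. Without control ASO replicate 4 the log2 fold change was -0.15. The span of Stab2 shares up to 35810 bases with an antisense gene on the opposite strand, and the part of this in its level was not tested.

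Stab1 varied more between livers of a group than most genes did. Its scaled level was 48.3, 146, 123, 38.5 and 238 in apoC-III ASO replicates 1 to 5. In control ASO replicates 1 to 4 it was 66.2, 98.7, 80.6 and 239. The highest and lowest livers differed 6.22-fold, and each group had 1 liver near 238. In deposited TPM Stab1 was at 3.48, 9.67, 5.79, 1.99 and 6.86 with apoC-III ASO and 5.33, 6.21, 4.25 and 2.31 with control ASO, so the highest and lowest values were both in the apoC-III ASO group. The within-group SD was 0.98 on the log2 scale, larger than that of 95.3% of the 8606 genes with a mean scaled level of at least 5, whose median was 0.43. The corresponding SD of Stab2 was 0.41. The log2 fold change of Stab1 was -0.15 (SE 0.54, 95% confidence interval -1.33 to 1.03, limma adjusted p = 0.992), an interval that spans 0.40 to 2.05 times the control level. It was 0.24 without control ASO replicate 4 and 0.17 on deposited TPM. Stab1 has 13 annotated transcripts, of which 10 are not protein coding and the shortest has 242 bases. Deposited values are per gene, and the part of each transcript in the spread of Stab1 was not tested.

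Rnaseh1, the enzyme on which gapmer ASOs rely, was at a low level (ENSMUSG00000020630, chromosome 12, 28649602 to 28659589, plus strand). In deposited TPM it was at 0.582, 0.880, 0.293, 0.370 and 0.0843 in apoC-III ASO replicates 1 to 5 and 0.769, 0.512, 0.382 and 0.0740 in control ASO replicates 1 to 4. The corresponding scaled levels were 8.09, 13.3, 6.21, 7.15 and 2.92 with apoC-III ASO and 9.56, 8.13, 7.24 and 7.67 with control ASO. On the scaled level the control livers lay close together, whereas apoC-III ASO replicate 2 lay above them all and replicates 3, 4 and 5 below them all. The means were 7.54 ± 3.78 (SD, n = 5) and 8.15 ± 1.01 (SD, n = 4). The log2 fold change was -0.21 (SE 0.33, 95% confidence interval -0.93 to 0.50, limma adjusted p = 0.966). It was 0.04 without apoC-III ASO replicate 5.

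The RNase H2 subunits form a complex with 1 copy of each, but their transcripts were at unequal levels. Rnaseh2c, an accessory subunit gene (ENSMUSG00000024925, chromosome 19, 5601873 to 5607019, plus strand), was the highest, with scaled levels of 16.9, 34.8, 20.5, 24.3 and 43.7 in apoC-III ASO replicates 1 to 5. In control ASO replicates 1 to 4 it was at 26.1, 40.9, 29.4 and 91.6. The 3 lowest values were all with apoC-III ASO, and control ASO replicate 4 was the highest of all 9 livers. In deposited TPM it was at 1.22, 2.30, 0.967, 1.26 and 1.26 with apoC-III ASO and 2.10, 2.58, 1.55 and 0.883 with control ASO. The mean scaled level was 28.0 ± 11.0 (SD, n = 5) and 47.0 ± 30.4 (SD, n = 4). Its log2 fold change was -0.62 (SE 0.38, 95% confidence interval -1.46 to 0.22, limma adjusted p = 0.900), the largest in size among the 9 genes, but -0.25 without control ASO replicate 4. Rnaseh2c and Kat5, on the opposite strand, share 4006 bases of their spans, and how strand was used in the quantification is not given in the sources used here.

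Rnaseh2a, the catalytic subunit gene (ENSMUSG00000052926, chromosome 8, 84956610 to 84969767, minus strand), was at 9.89, 14.3, 7.06, 14.6 and 13.3 on the scaled level with apoC-III ASO and 14.6, 11.0, 9.64 and 25.0 with control ASO. Apart from control ASO replicate 4, the highest, the groups covered about the same range. In deposited TPM it was at 0.711, 0.946, 0.333, 0.756 and 0.384 in apoC-III ASO replicates 1 to 5 and 1.17, 0.691, 0.509 and 0.241 in control ASO replicates 1 to 4. The log2 fold change was -0.28 (SE 0.31, 95% confidence interval -0.95 to 0.40, limma adjusted p = 0.948), and -0.01 without control ASO replicate 4. Rnaseh2a and the protein-coding gene Gm49661, on the same strand, share 1756 bases of their spans. The part of this overlap in the level of Rnaseh2a, and in ratios to it, was not tested. Rnaseh2b, the other accessory subunit gene (ENSMUSG00000021932, chromosome 14, 62292589 to 62372992, plus strand), was the lowest of the 9 genes. Its scaled level was 1.17, 0.489, 5.16, 3.85 and 3.38 with apoC-III ASO and 1.66, 2.67, 1.94 and 1.74 with control ASO. The apoC-III ASO livers lay on both sides of the control livers. In deposited TPM it was at 0.0845, 0.0323, 0.244, 0.199 and 0.0976 with apoC-III ASO and 0.134, 0.168, 0.102 and 0.0168 with control ASO. The log2 fold change was 0.17 (SE 0.40, 95% confidence interval -0.71 to 1.05, limma adjusted p = 0.987). TPM keeps no count of reads, so the counting error of such low values is unknown.

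Xrn2 encodes a nuclear 5′ to 3′ exonuclease that also acts in transcription termination (ENSMUSG00000027433, chromosome 2, 147012996 to 147078000, plus strand). Its within-group SD was 0.37 on the log2 scale. Of the 8606 genes with a mean scaled level of at least 5, 36.8% had a smaller SD. Its scaled level was 33.5, 42.6, 50.9, 47.6 and 66.7 in apoC-III ASO replicates 1 to 5 and 45.7, 51.8, 44.4 and 27.6 in control ASO replicates 1 to 4. Control ASO replicate 4 was the lowest of all livers and apoC-III ASO replicate 5 the highest. In deposited TPM it was at 2.41, 2.82, 2.41, 2.46 and 1.92 with apoC-III ASO and 3.67, 3.26, 2.34 and 0.266 with control ASO. The mean scaled level was 48.3 ± 12.2 (SD, n = 5) and 42.4 ± 10.4 (SD, n = 4), and the log2 fold change was 0.18 (SE 0.25, 95% confidence interval -0.37 to 0.74, limma adjusted p = 0.966). Without control ASO replicate 4 it was -0.0033.

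Over the 9 genes, 3 had a higher and 6 a lower mean log2 level with apoC-III ASO, with a median log2 fold change of -0.21 beside -0.0013 over all genes tested. None of the 9 was called on the scaled level, where 0.0167% of all genes were. On deposited TPM 6 of the 9 genes had a mean of at least 1 and none of these was called, beside 0.223% of 4936 genes. The groups did not overlap for 0 of the 9 genes, beside 1.83% of all genes tested. The 95% confidence intervals gave the sizes of change that remained compatible with these livers under this fit. For Asgr2 the interval ran from 0.61 to 1.15 times the control level, and for Xrn2 from 0.77 to 1.67 times. For Rnaseh1 it ran from 0.53 to 1.41 times and for Rnaseh2c from 0.36 to 1.16 times. A 1.5-fold decrease lay inside the interval of Rnaseh1, Rnaseh2a, Rnaseh2b, Rnaseh2c, Stab1, Asgr1 and Asgr2 and outside that of Stab2 and Xrn2. For Stab2 this depended on single livers. On the log2 scale its interval ran from -0.68 to 0.39 without control ASO replicate 4, which includes such a decrease. It also did so without apoC-III ASO replicate 1, apoC-III ASO replicate 5 or control ASO replicate 1. A 1.5-fold increase lay inside the scaled-level intervals of both Stab2 and Xrn2 over all 9 livers. On deposited TPM the intervals of Stab2 and Xrn2, from -0.79 to 1.03 and -0.69 to 1.02, both included it.

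**Figure D2:**
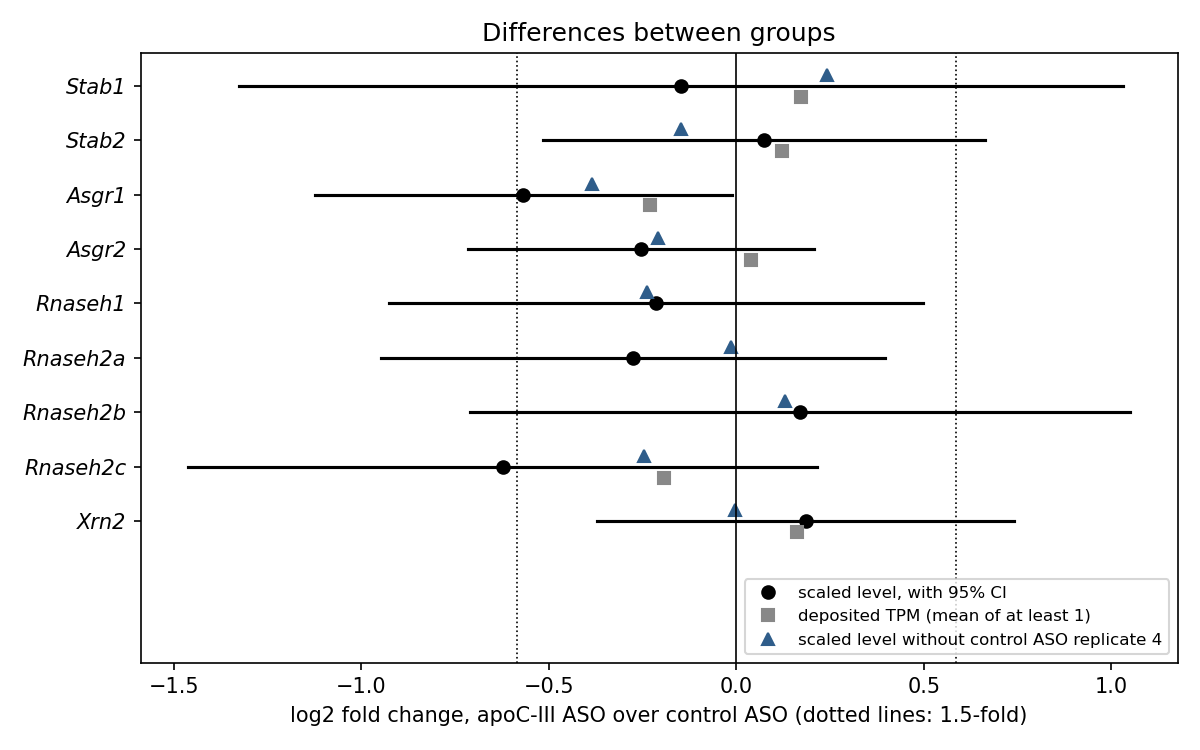
Log2 fold change of each gene (apoC-III ASO over control ASO) on the scaled level with its 95% confidence interval (black), on deposited TPM for the 6 genes with a mean of at least 1 (grey squares) and on the scaled level without control ASO replicate 4 (blue triangles), with dotted lines at 1.5-fold. The interval of Asgr1 ends at -0.01, all other intervals include 0, and the point for Rnaseh2c moves from -0.62 to -0.25 without that liver.

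A ratio of 2 genes in the same liver does not depend on how libraries are scaled. Such ratios, and levels relative to cell type markers, were added after seeing the data, as 8 comparisons of the groups. Asgr1 exceeded Asgr2 by 1.26 to 1.99 times in the apoC-III ASO livers (mean 1.63 ± 0.27, SD, n = 5) and 1.71 to 2.67 times in the control livers (2.04 ± 0.44, SD, n = 4). The log2 difference of this ratio was -0.31 (exact two-sided permutation test, p = 0.143, 0.571 after Benjamini-Hochberg adjustment over the 8), and -0.18 without control ASO replicate 4. Stab1 to Stab2 was far more variable, between 0.632 and 6.85 over the 9 livers, with a log2 difference of -0.23 between groups (exact permutation p = 0.762). The highest ratio was in control ASO replicate 4, and without it the difference turned to 0.39. Rnaseh2c to Rnaseh2a ran from 1.66 to 3.73 (log2 difference -0.35, exact permutation p = 0.286). Rnaseh1 to Rnaseh2a ran from 0.220 to 0.930, below 1 in 9 of 9 livers, with a log2 difference of 0.03 (exact permutation p = 0.968) that turned to -0.27 without control ASO replicate 4.

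In whole liver, fewer cells of a type and less RNA per cell cannot be told apart, so the receptors were also set against markers of their cell type. Relative to the mean log2 level of 14 hepatocyte markers of the same liver, Asgr1 differed by -0.45 on the log2 scale between groups (exact permutation p = 0.127, adjusted 0.571) and Asgr2 by -0.13 (exact permutation p = 0.397). These differences were -0.26 and -0.09 without control ASO replicate 4. Relative to 20 LSEC markers, Stab1 differed by -0.23 (exact permutation p = 0.746) and Stab2 by 0.00 (exact permutation p = 0.984). Without control ASO replicate 4 that of Stab1 turned to 0.16 and that of Stab2 was -0.23. The markers themselves were present. The 14 hepatocyte markers summed to scaled levels of 35592 to 76666 with apoC-III ASO and 51415 to 56674 with control ASO. LSEC markers summed to 223 to 323 and 218 to 300, with 13 of 20 higher (median log2 fold change 0.05), but 7 of 20 higher without apoC-III ASO replicate 5 (median -0.05). Among them, the log2 fold change for Lyve1, a hyaluronan receptor, was 0.52 (SE 0.27, adjusted p = 0.887) and for Eng, a TGF-β co-receptor, -0.50 (SE 0.41, adjusted p = 0.918), with Eng at a scaled level of 72.1 in control ASO replicate 4 and 14.1 to 23.3 in the other livers. Without that liver the log2 fold change of Eng was 0.0063. The LSEC markers Flt4 and Clec4g were higher, like Lyve1. Their log2 fold changes were 0.55 (SE 0.27, limma adjusted p = 0.883) and 0.50 (SE 0.28, limma adjusted p = 0.900). Without control ASO replicate 4 they were 0.31 and 0.23.

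Of 7 relations between livers, that of Asgr1 with Asgr2 was the closest. Over the 9 livers Pearson's r of their log2 scaled levels was 0.78 (exact permutation p = 0.0117, 0.0816 after adjustment over the 7) and Spearman's rho 0.85 (exact permutation p = 0.0061, adjusted 0.0425). Without the 2 livers farthest from the median of Asgr1 r was 0.69 over 7 livers. Within the groups r was 0.74 over 5 apoC-III ASO livers and 0.69 over 4 control livers, which are too few for a test. The stabilins did not follow each other in the same way, with r = -0.18 (exact permutation p = 0.640) and rho = -0.20 for Stab1 with Stab2. Stab1 had r = 0.39 and rho = 0.32 with the LSEC markers and r = 0.23 and rho = 0.37 with the Kupffer cell and macrophage markers (adjusted exact permutation p = 0.807 for each r). For Stab2 with the LSEC markers r was 0.10 and rho 0.02, for Asgr1 with the hepatocyte markers r was 0.34 and rho 0.13, and for Rnaseh2b with Rnaseh2c r was -0.12 and rho -0.07, all with an adjusted exact permutation p of 0.807 for r. On deposited TPM 3 of the 7 relations passed adjustment: Asgr1 with Asgr2 at r = 0.95, Stab2 with the LSEC markers at r = 0.89 and Asgr1 with the hepatocyte markers at r = 0.92 (adjusted exact permutation p = 0.0014, 0.0074 and 0.0026). On that scale all nuclear genes of a liver share its protein-coding fraction.

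**Figure D3:**
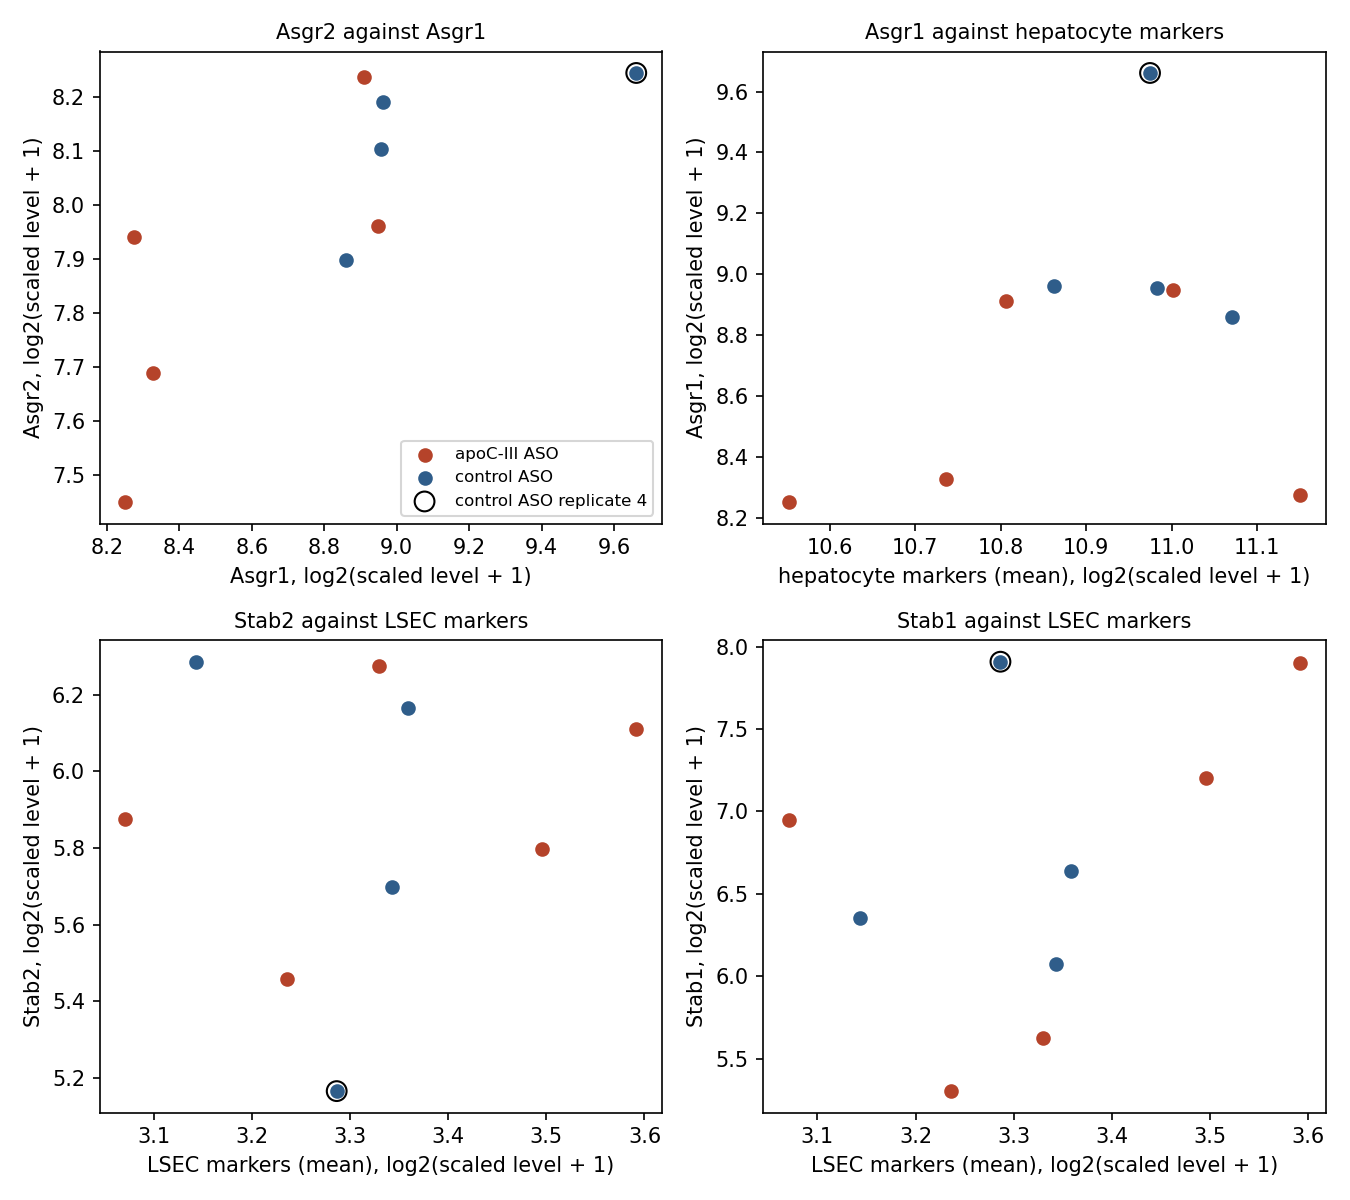
Log2(scaled level + 1) in each liver for Asgr2 against Asgr1, Asgr1 against the mean of the hepatocyte markers, and Stab2 and Stab1 against the mean of the LSEC markers, with apoC-III ASO livers in red, control ASO livers in blue and a ring around control ASO replicate 4. Asgr1 and Asgr2 vary together (r = 0.78), whereas Stab2 shows no trend with the LSEC markers (r = 0.10).

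The genes whose pattern over the 9 livers was most like that of a member were looked up for Stab2, Asgr1 and Rnaseh1 among 8606 genes, as a description without a test. With Stab2 the highest r was that of Clec4f, a lectin of Kupffer cells (0.94, and 0.93 over 8 livers without control ASO replicate 4), followed by Spag9 (0.93), Cd55 (0.92), Gmip (0.92) and 1110037F02Rik (0.92). With Asgr1 the highest were Spp2, a secreted phosphoprotein made in liver (0.99), Mup4, a major urinary protein (0.99), Bet1l (0.98), Mrpl24 (0.97) and Fhad1 (0.97). These 5 were all highest in control ASO replicate 4, and r without it was 0.94 to 0.98. Mup4 belongs to a gene family with near-identical members, and whether reads shared within the family affect its value was not tested. With Rnaseh1 they were Nubp1 (0.91), 2700062C07Rik (0.89), Ier3ip1, Ap5s1 and Pot1b (each 0.88). All 5 were highest in apoC-III ASO replicate 2, the liver with the highest Rnaseh1.

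Other genes on the path of an oligonucleotide were described from lists, of which no gene was called. Of the 12 lists described, cell type markers included, 11 had a median of the other sign under at least 1 alternative, and 6 with a single liver left out, so the directions below are those of this scale. Over all genes tested, 5.57% had an unadjusted limma p under 0.05. Among other scavenger and lectin receptors, 6 of 13 tested were higher and 7 lower (median log2 fold change -0.02), with 1 at an unadjusted p under 0.05. That was Clec10a, a macrophage galactose-type lectin, whose log2 fold change was 1.21 (SE 0.43, adjusted p = 0.860) at scaled levels of 1.04 to 4.91 with apoC-III ASO and 0 to 2.42 with control ASO. For Scarb1, the HDL receptor, it was 0.52 (SE 0.26, adjusted p = 0.883), and for the fatty acid transporter Cd36 -0.35 (SE 0.27, adjusted p = 0.914), or -0.11 without control ASO replicate 4. Cd163, the haptoglobin-haemoglobin scavenger receptor of macrophages, ranged from 0.531 to 23.1 with apoC-III ASO and from 3.93 to 9.07 with control ASO. Of 14 genes of endosomal trafficking, 4 were higher and 10 lower (median -0.09), and 1, Cltc, had an unadjusted p under 0.05. Cltc, the clathrin heavy chain, was at 32.9 to 39.7 with apoC-III ASO and 42.0 to 61.3 with control ASO, without overlap (log2 fold change -0.47, SE 0.19, adjusted p = 0.876). Other values were -0.43 (SE 0.25) for Rab5a, a GTPase of early endosomes, 0.40 (SE 0.26) for Anxa2, an annexin of late endosomes, and 0.45 (SE 0.38) for Stx5a, a Golgi SNARE. Anxa2 was at 0.26 and Stx5a at 0.09 without control ASO replicate 4.

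Of 16 genes for proteins known to bind oligonucleotides, 6 were higher and 10 lower (median -0.04). The largest differences were -0.46 (SE 0.32) for Npm1, a nucleolar chaperone, -0.38 (SE 0.24) for Tcp1, a chaperonin subunit, and -0.35 (SE 0.24) for Sfpq, a paraspeckle protein. Npm1 was at -0.17 and Sfpq at -0.18 without control ASO replicate 4. Of 20 tested genes for removal of RNA fragments, which include the exosome and the decapping enzymes, 9 were higher and 11 lower (median -0.06). Of the 20, 2 had an unadjusted limma p under 0.05, beside 5.57% of all genes tested. Lsm1, of the LSM ring that assists decapping, differed by 1.23 on the log2 scale (SE 0.47, adjusted p = 0.871), at 6.58 to 21.8 under apoC-III ASO and 1.56 to 11.8 under control ASO. Control ASO replicate 4 was the lowest, and without it the difference was 0.77. Wdr61, a subunit of the SKI complex, differed by -0.56 (SE 0.24, adjusted p = 0.876), and Exosc8, an exosome subunit, -0.59 (SE 0.34, adjusted p = 0.900). Of 10 partners of XRN2 and termination factors, 6 were higher and 4 lower (median 0.12). With each liver left out in turn that median ran from 0.06 to 0.14. Ttf2 was at 0.55 (SE 0.49), Pcf11 at 0.25 (SE 0.20) and Cdkn2aip at -0.23 (SE 0.25). Without control ASO replicate 4 Ttf2 was at 0.19 and Cdkn2aip at -0.05. Of 11 genes of RNA:DNA hybrid processing and Aicardi-Goutieres syndrome, 5 were higher and 6 lower (median -0.08). With each liver left out in turn that median ran from -0.17 to 0.03. Among them were the RNA editing enzyme Adar at 0.37 (SE 0.29) and the topoisomerase Top1 at -0.35 (SE 0.22). The flap endonuclease Fen1 was at -0.28 (SE 0.26), or -0.12 without control ASO replicate 4.

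Markers of the other cells of liver were set beside these. Of 11 Kupffer cell and macrophage markers tested, 7 were higher and 4 lower (median log2 fold change 0.14). Their summed level was 133 to 188 with apoC-III ASO and 120 to 190 with control ASO. Of 8 stellate cell markers 6 were lower (median -0.24), with a summed level of 133 to 165 against 154 to 276. Of the 8, 2, Lrat and Dcn, had an unadjusted limma p under 0.05, beside 5.57% of all genes tested. Lrat, which esterifies retinol in stellate cells, was at 0.977 to 1.63 with apoC-III ASO and 2.29 to 5.28 with control ASO (log2 fold change -0.89, SE 0.26, adjusted p = 0.842), and Dcn, a matrix proteoglycan, differed by -0.57 on the log2 scale (SE 0.24, adjusted p = 0.876), or by -0.36 without control ASO replicate 4. Of 14 hepatocyte markers 10 were lower (median -0.16), among them Cps1, an enzyme of the urea cycle, at -0.30 (SE 0.24), whereas Hnf4a was at 0.40 (SE 0.26), or 0.19 without control ASO replicate 4. Quantile normalization turned the list to 11 higher and 3 lower (median 0.12), and rescaling without factors, which raised the median of all genes to 0.41, put 14 of 14 higher. Cholangiocyte markers summed to 37.9 to 81.8 and 41.0 to 121, and 3 of 6 could be tested (median -0.13, but 0.14 without control ASO replicate 4). Blood cell markers summed to 42.3 to 764 with apoC-III ASO and 39.9 to 1832 with control ASO, and all 4 tested were lower (median -0.49). These became 2 higher and 2 lower (median 0.17) without control ASO replicate 4. Their summed level rested on haemoglobin. Hbb-bs was at 591 in apoC-III ASO replicate 4 and 1478 in control ASO replicate 4 against 10.9 to 108 in the other 7 livers, and S100a8 was listed at 0 in all 9. Asgr1 was the highest of its group in both of these livers, and Stab2 the lowest. The part of blood, or of any other cell type, in the levels of the 9 genes was not tested.

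**Figure D4:**
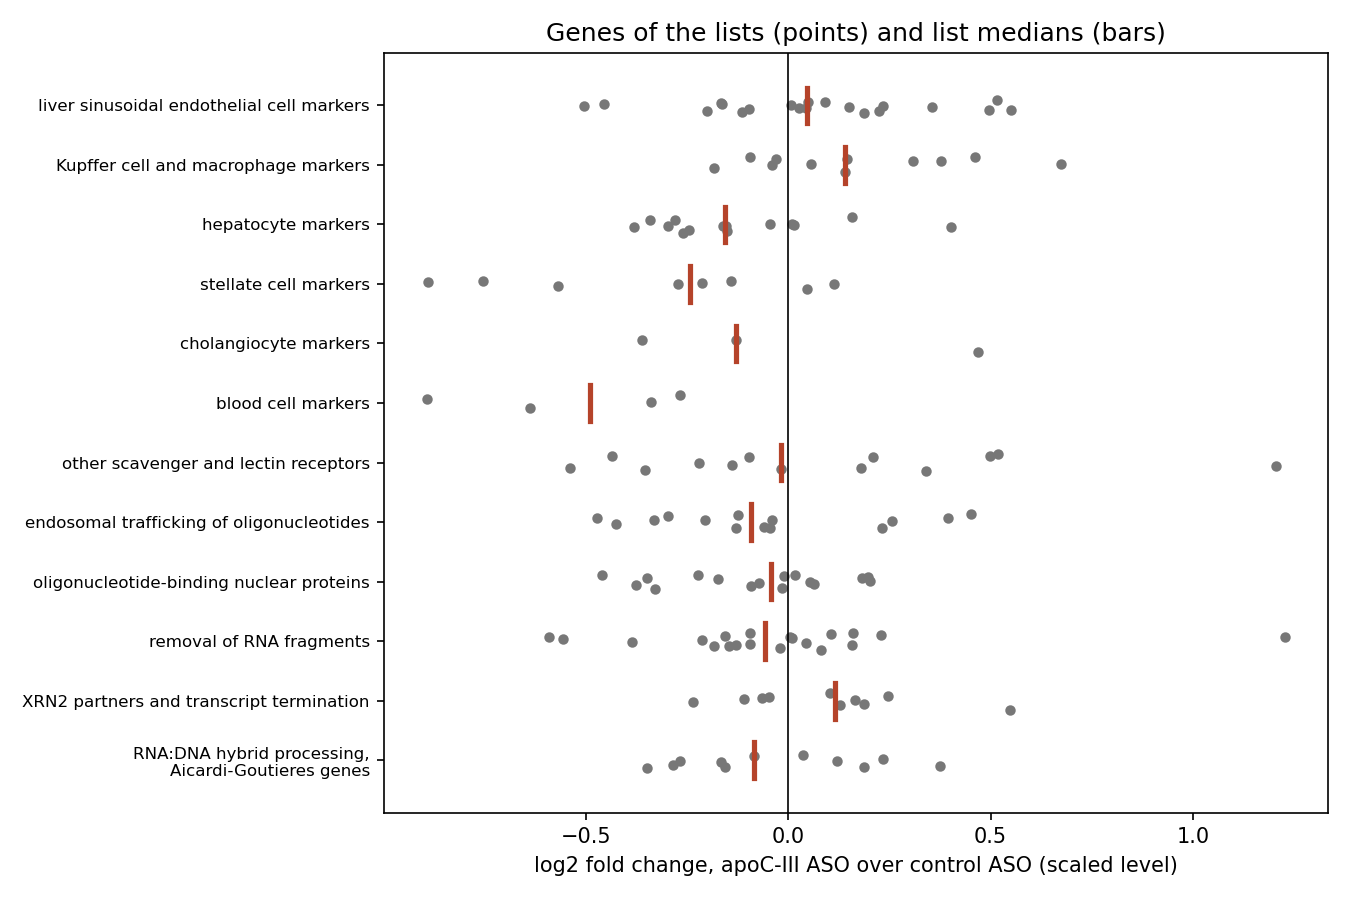
Log2 fold change (apoC-III ASO over control ASO, scaled level) of each tested gene of 12 lists (points) with the list median (red bar). List medians lie between -0.49 for 4 blood cell markers and 0.14 for the Kupffer cell and macrophage markers, and without control ASO replicate 4 the blood cell median turns to 0.17 and the cholangiocyte median to 0.14.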

How the data were processed

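RNA depleted of ribosomal RNA was sequenced by the authors as single-end reads from stranded libraries of 9 livers. The values that the authors deposited are TPM for each gene. The submitters' processing notes name kallisto 0.43.1 and the build GRCm38. The study's methods name a read aligner and a count test instead, and those counts were not used here. TPM keeps no depth, so the counting error of a liver is unknown. Nothing in the labels ties a replicate to a cohort or day, and p-values measure only the spread between these samples. Every value column was mapped to a liver.

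Identifiers were matched to GENCODE M21, which held 51719 of 51912 (99.6%). The scaled level is the TPM of 21857 nuclear protein-coding genes rescaled to 1000000 per liver and divided by median-of-ratios factors from 12263 genes. Genes with a mean of at least 1 were compared on log2(level + 1) with limma 3.58.1 (R 4.3.3), using lmFit and a trended eBayes with no covariate. Calls required a change over 1.5-fold and p under 0.05 after Benjamini-Hochberg adjustment over all genes tested. Exact permutation tests, ratios and relations were computed in Python 3.11.15 with numpy 2.4.6, pandas 2.3.3 and scipy 1.17.1, and plots with matplotlib 3.10.9. The tests were tried on simulated data first.

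The text names the 9 members, Apoc3, from each of 12 lists up to 3 genes with the largest change and 3 with the smallest p, and the 5 genes most like Stab2, Asgr1 and Rnaseh1. A gene that this rule names is not reported here. Anpep, S100a8 and Kat5 were named after their values were seen, and Gm49661 for its overlap with Rnaseh2a. The members, lists, scale and tests were chosen with earlier results of these data known. Alternatives were other scalings, pseudocounts of 0.1 and 5, other filters and thresholds, no trend, array weights, a replicate block, exact tests and each liver left out.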

Additional observations from a re-analysis of the deposited data

Results flagged for a closer look

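One value of the 9 genes stood far from the others of its group. The scaled level of Asgr1 in control ASO replicate 4 was 809, whereas the nearest other control liver was at 498, a gap of 0.90 of the group's range by Dixon's measure. Each of the 9 genes was looked at in both groups, 18 groups in all, and chance gives such a value in about 1 in 20 groups. That liver was also the one with the smallest share of TPM in nuclear protein-coding genes, 1.94%, and with the highest Hbb-bs. On deposited TPM its Asgr1 value, 7.80, was the lowest of all 9 livers. The part of either measure in the value was not tested.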

How the results depend on the processing

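None of the 9 genes was called under any alternative. Asgr1 and Rnaseh2c stayed lower with apoC-III ASO under all 20 alternative fits, with log2 fold changes of -0.67 to -0.09 and -0.84 to -0.16. The other 7 changed sign under at least 1. On deposited TPM Stab1 was at 0.17 and Asgr2 at 0.038. Protein-coding rescaling without factors moved the median of all genes to 0.41, and there Stab1 was at 0.33, Asgr2 at 0.22, Rnaseh1 at 0.21 and Rnaseh2a at 0.17. Array weights gave 0.21 for Stab1 and -0.064 for Stab2. With each liver left out in turn, Stab1 ran from -0.47 to 0.24, Stab2 from -0.15 to 0.23, Rnaseh1 from -0.43 to 0.037, Rnaseh2b from -0.049 to 0.46 and Xrn2 from -0.0033 to 0.30. Within livers, Rnaseh1 relative to Rnaseh2a was at 0.031 and Stab2 relative to LSEC markers at -0.0047 (both added after seeing the data). Without control ASO replicate 4, also added, the within-liver differences turned to 0.39 for Stab1 to Stab2, -0.27 for Rnaseh1 to Rnaseh2a and 0.16 for Stab1 relative to LSEC markers.

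The count called lower was 2, with 6 on deposited TPM and 1 after scaling all genes, without factors, with a pseudocount of 5, without a filter or without a trend, and 3 with array weights. The count called higher was 0, with 5 on deposited TPM and 1 after scaling all genes. With each liver left out, 0 to 1 genes were called higher and 1 to 3 lower. Apoc3 was called under all alternatives but deposited TPM (-2.62, adjusted p = 0.104). The cause of these changes was not tested.

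Replicate numbers are shared by the groups, and whether they pair the livers cannot be told from these values. Deviations of same-numbered livers correlated at 0.09, 0.15, 0.04 and 0.24, with no reference to set them against. Both livers numbered 4 were closest to their own number in the other group, as was control ASO replicate 2. The remaining livers that share a number were not. A replicate block called 1 gene higher and 2 lower. As apoC-III ASO replicate 5 has no control liver of its number, it did not enter the block's differences. The log2 fold changes of the 9 genes were therefore those without that liver, with Rnaseh1 at 0.037, Asgr1 at -0.66 and Rnaseh2c at -0.80. Under the block the limma adjusted p was 0.534 for Asgr1 and 0.609 for Rnaseh2c.

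Among relations, r of Stab1 with Stab2 was 0.43 on deposited TPM. Stab2 with LSEC markers was at -0.0038 after scaling all genes. Without the 2 livers farthest from the median it was at -0.10, Asgr1 with hepatocyte markers at -0.060 and Rnaseh2b with Rnaseh2c at 0.14. Of the list medians under the alternatives, 215 moved by less than the SD between livers and 25 by more. TPM without reads limits what can be said of the lowest genes, Rnaseh1 and Rnaseh2b.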
